A study of Homo sapiens with 6 samples.

Results

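Aminoacyl-tRNA synthetases are the enzymes that join each amino acid to its transfer RNA. The set comprised 35 genes taken by gene symbol, 19 of them cytosolic (symbols ending in 1, with FARSA and FARSB) and 16 mitochondrial (symbols ending in 2). A gene was represented by its brightest probe set among those that carried its symbol alone. Such a probe set was found for 32 of the 35 genes, 17 cytosolic and 15 mitochondrial, and all 32 were among the 10526 genes tested of 19775 with a value. MARS1, QARS1 and TARS2 were named on the arrays only together with other genes and were not analysed here.

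Expression was measured on 6 arrays of H1299, an established human non-small-cell lung cancer line without p53. The cells had been infected for 72 hours with lentivirus carrying a scramble shRNA or either of 2 shRNAs against RBP2. RBP2 is another name of KDM5A, a demethylase of histone H3 lysine 4 that binds the retinoblastoma protein. There were 2 arrays each for scramble, shRNA 1 (RBP2 KD1) and shRNA 2 (RBP2 KD2). All 3 groups, scramble included, had thus been through lentiviral infection, and all were grown in RPMI with 10% fetal calf serum. The labels do not state whether the replicates were separate cultures, so the p-values reflect the spread between these arrays, which may be technical. The question the design poses here is which synthetase transcripts differed after RBP2 knockdown, and whether each difference was seen with both shRNAs.

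The cytosolic enzymes charge tRNA for the ribosomes of the cytosol, and the mitochondrial enzymes are encoded in the nucleus and imported. GARS1 and KARS1 each encode both the cytosolic and the mitochondrial enzyme, and EPRS1 carries 2 activities, for glutamate and proline. Mitochondria make glutaminyl-tRNA in a roundabout way: EARS2 first loads the tRNA with glutamate, and the GatCAB amidotransferase then converts it. When amino acids run short, uncharged tRNA activates the kinase GCN2 (EIF2AK4), and the transcription factor ATF4, made in greater amount, induces many cytosolic synthetase genes. ATF4 binds DNA as a dimer with C/EBP proteins at composite C/EBP-ATF elements.

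Promoter windows from RefSeq (GRCh38.p14; 250 bases before the start of transcription and 50 from the start on) were matched by symbol for 30 of the 35 genes. The core of the C/EBP-ATF element, TGATGCAA, was searched on both strands. It was found for 6 of the 30 genes, or 20%: AARS1, CARS1, IARS1, NARS1, TARS1 and MARS1, all cytosolic. Counted by windows it was in 6 of 39 windows of the set (15.4%), in 304 of all 35116 windows (0.866%) and in 66 of 12743 windows of tested genes (0.518%). With any base at the sixth position, TGATGNAA, which contains the former motif, added GARS1 and YARS2 and was in 8 of the 39 windows (20.5%), against 3.62% of all windows and 1.9% of those of tested genes. The stretches of 100 bases below are shown because 5 of them hold the full motif in a gene with a value. The other, of GARS1, holds the looser one in the gene with the largest average fall by brightest probe set. Each is written 5′ to 3′ on the gene's own strand, with the motif, as read on that strand, in capitals.
AARS1: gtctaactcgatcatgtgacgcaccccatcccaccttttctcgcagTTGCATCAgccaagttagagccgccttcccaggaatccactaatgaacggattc
CARS1: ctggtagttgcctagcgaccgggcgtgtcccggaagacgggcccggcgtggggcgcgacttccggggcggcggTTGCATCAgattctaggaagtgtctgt
IARS1: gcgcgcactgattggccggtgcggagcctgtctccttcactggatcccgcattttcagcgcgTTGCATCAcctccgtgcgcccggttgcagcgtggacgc
NARS1: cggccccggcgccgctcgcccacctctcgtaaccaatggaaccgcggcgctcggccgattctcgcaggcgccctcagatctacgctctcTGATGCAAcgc
TARS1: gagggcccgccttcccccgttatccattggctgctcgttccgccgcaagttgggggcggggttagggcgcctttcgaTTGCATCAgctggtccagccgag
GARS1: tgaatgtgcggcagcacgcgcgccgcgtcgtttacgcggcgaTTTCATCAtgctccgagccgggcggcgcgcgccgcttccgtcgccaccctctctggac
The stretches lie at chr16:70289640-70289739 (AARS1, minus strand), chr11:3057399-3057498 (CARS1, minus strand), chr9:92293673-92293772 (IARS1, minus strand), chr18:57621812-57621911 (NARS1, minus strand), chr5:33440890-33440989 (TARS1, plus strand) and chr7:30594803-30594902 (GARS1, plus strand). The first base of the motif was 2 bases upstream of the start in CARS1, 13 upstream in IARS1, 33 upstream in GARS1 and 187 upstream in AARS1. It lay 2 bases downstream of the start base in TARS1 and 14 downstream in NARS1. A match describes the letters of the window and does not show that a factor binds there.

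KDM5A, the targeted gene, read 9.35 and 9.42 on the scramble arrays, 7.42 and 7.27 with shRNA 1, and 6.66 and 6.72 with shRNA 2, all on the log2 scale of the deposited values. Relative to scramble, shRNA 1 left it 4.11-fold lower in limma (adjusted p = 0.0048), and shRNA 2 6.46-fold lower (adjusted p = 0.0024). Array medians over tested genes lay between 8.49 and 8.56. Of the markers chosen for the tumour line, which are not all epithelial, KRT8, KRT18 and VIM were measured (VIM at 14.89 to 15.04). The epithelial markers KRT19 and EPCAM stood at their floors of 2.24 and 2.30 on every array. KRT8 lay between 9.80 and 10.69 and was higher on all 4 knockdown arrays than on both scramble arrays. The leukocyte, endothelial and fibroblast markers with a value were within 0.1 of the lowest array value, except COL1A1, which read 6.20 to 7.02.

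With the 2 shRNAs averaged, 7 of the 17 cytosolic genes fell (CARS1, EPRS1, GARS1, IARS1, SARS1, TARS1 and YARS1), 0 rose and 10 did not pass the test. Of the 15 mitochondrial genes EARS2 fell, 0 rose and 14 did not pass. A call means a Benjamini-Hochberg adjusted p under 0.05 in limma over all tested genes. The background was 12.5% of all tested genes called, 6.92% lower and 5.61% higher. The 1 mitochondrial fall among 15 genes was near the background share called lower. The median log2 fold change was -0.45 for the cytosolic genes, 0.04 for the mitochondrial genes and 0.02 for all tested genes, and 13 of 17 cytosolic against 6 of 15 mitochondrial values were below 0. In bulk RNA, fewer cells with a transcript and less of it per cell cannot be told apart.

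Same-numbered arrays of the groups deviated together, and a fit that blocked on the replicate called 18 of the 32 genes in this average, 15 lower and 3 higher. The calls gained were the falls of AARS1, HARS1, LARS1, NARS1, WARS1, MARS2 and NARS2 and the rises of FARS2, RARS2 and WARS2. Over all 10526 tested genes the block called 3670 in this average, 1842 lower and 1828 higher. The count of 8 rested on every array. It was 2 without shRNA 1 replicate 1 and 0 without any other array, when 12 to 17 of the 32 genes still had an unadjusted p under 0.05 and at most 7 of all tested genes were called. All 8 kept their direction when any array was left out.

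Each shRNA against scramble gave a different number of calls, and both comparisons use the same 2 scramble arrays. With shRNA 1, 4 cytosolic genes (GARS1, IARS1, TARS1 and WARS1) and EARS2 fell and 0 rose, where 11.5% of all tested genes were called, 7.90% lower and 3.62% higher. With shRNA 2, 11 of the 17 cytosolic genes fell and 0 rose, while 0 of the 15 mitochondrial genes fell and 3 (CARS2, FARS2 and RARS2) rose. There the background was 31.0% called, 14.4% lower and 16.7% higher. The 3 mitochondrial rises among 15 genes were thus near the background share called higher. The median log2 fold change of the cytosolic genes was -0.42 with shRNA 1 and -0.56 with shRNA 2, that of the mitochondrial genes -0.07 and 0.13, and that of all tested genes 0 and 0.08. Under the replicate block the calls were 11 lower and 0 higher with shRNA 1, and 14 lower and 8 higher with shRNA 2. The cytosolic share was 8 with shRNA 1, and 11 lower and 2 higher with shRNA 2. Over all 10526 tested genes the block called 1769 lower and 1348 higher with shRNA 1, and 2338 lower and 2986 higher with shRNA 2.

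Taken array by array, the median cytosolic gene stood 0.32 and 0.41 below its scramble mean on the shRNA 1 arrays (log2 medians of -0.32 and -0.41) and at -0.50 and -0.56 on the shRNA 2 arrays, against 0.01 and -0.01 on the scramble arrays. The mitochondrial medians were -0.04 and -0.06 with shRNA 1 and 0.06 and 0.20 with shRNA 2, against 0.09 and -0.09 on the scramble arrays. The 4 knockdown arrays thus lay below the scramble arrays in the cytosolic median, and in the mitochondrial median shRNA 1 lay within the scramble range. Leaving out an array mattered to the counts by shRNA. The shRNA 1 count of 5 became 0 without either scramble array, with 7 and 10 genes at an unadjusted p under 0.05, and 1 (GARS1) without any of the others. The shRNA 2 count of 14 became 0 without scramble replicate 1 or shRNA 2 replicate 2, with 15 and 16 genes at an unadjusted p under 0.05. It was 2 without scramble replicate 2, 1 without shRNA 2 replicate 1 and 13 without either shRNA 1 array.

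**Figure D1:**
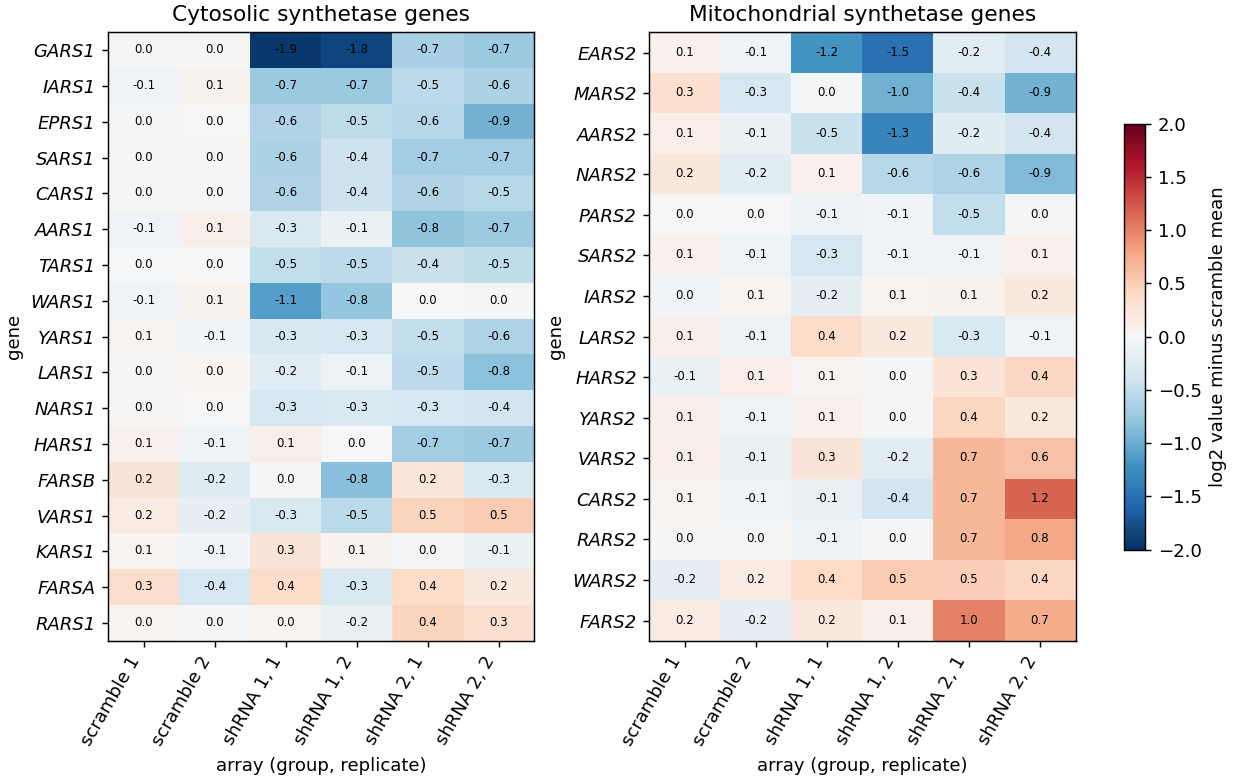
Each cell gives the log2 value of a synthetase gene (rows) on an array (columns) minus the mean of the 2 scramble arrays, on a colour scale from -2 to 2. Cytosolic genes are on the left and mitochondrial genes on the right, ordered by their mean change. Blue fills most of the cytosolic knockdown columns, with GARS1 darkest under shRNA 1, and the mitochondrial genes go both ways.

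**Figure D2:**
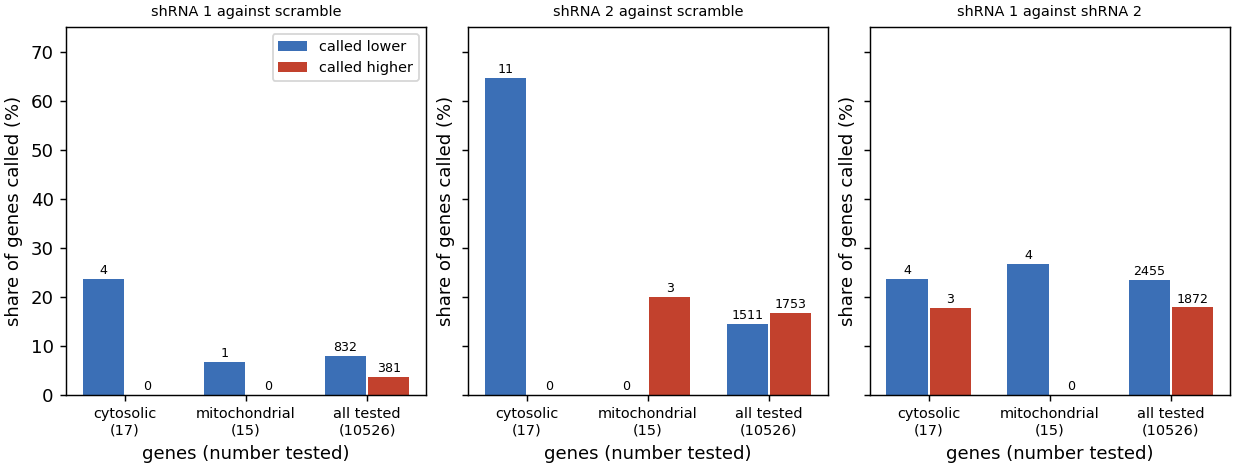
Bars give the percentage of genes called lower (blue) or higher (red) at an adjusted p under 0.05 for cytosolic synthetases, mitochondrial synthetases and all tested genes, with the number of genes above each bar. With shRNA 2 the cytosolic bar stands for 11 of 17 genes, all lower, and the mitochondrial bar for 3 of 15, all higher. The latter is near the 16.7% of all tested genes called higher.

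GARS1, glycyl-tRNA synthetase, had the largest fall of the set with shRNA 1 and in the average, each gene taken by its brightest probe set. Its arrays read 13.06 and 13.10 with scramble, 11.15 and 11.24 with shRNA 1, and 12.43 and 12.34 with shRNA 2. The 3 groups did not overlap, with shRNA 1 lowest and shRNA 2 in between. The fall was 3.69-fold with shRNA 1 (log2 -1.88 ± 0.11 SE, adjusted p = 0.0048) and 1.62-fold with shRNA 2 (-0.69 ± 0.11, adjusted p = 0.011). The difference between the shRNAs itself passed the test, at -1.19 ± 0.11 (adjusted p = 0.0019).

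IARS1 and TARS1, the isoleucyl- and threonyl-tRNA synthetases, fell with both shRNAs. IARS1 read 13.19 and 13.33 with scramble, 12.52 and 12.52 with shRNA 1, and 12.73 and 12.63 with shRNA 2. Its log2 fold changes were -0.74 ± 0.11 (adjusted p = 0.023) and -0.58 ± 0.11 (adjusted p = 0.019). TARS1 read 12.42 and 12.40 with scramble, 11.91 and 11.88 with shRNA 1, and 11.97 and 11.90 with shRNA 2, for changes of -0.51 ± 0.10 (adjusted p = 0.039) and -0.47 ± 0.10 (adjusted p = 0.024). In both genes every knockdown array was below both scramble arrays. The 95% interval of the difference between the shRNAs ran from -0.45 to 0.12 for IARS1 and from -0.29 to 0.22 for TARS1. The TARS1 call with shRNA 1 was lost under quantile normalization (adjusted p = 0.051). Averaging all probe sets of TARS1, the second of which read 2.24 to 2.27, lost both calls, at -0.25 (adjusted p = 0.12) and -0.24 (adjusted p = 0.083).

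CARS1, SARS1, EPRS1, YARS1 and NARS1 were lower on all 4 knockdown arrays than on both scramble arrays, and passed the test with shRNA 2. CARS1, which charges cysteine tRNA, read 11.56 and 11.51 with scramble, 10.93 and 11.12 with shRNA 1, and 10.93 and 10.98 with shRNA 2. The change was -0.51 with shRNA 1 (adjusted p = 0.057) and -0.58 with shRNA 2 (adjusted p = 0.021). SARS1, the seryl enzyme, which also charges the selenocysteine tRNA with serine, read 11.67 and 11.71, then 11.06 and 11.27, then 11.00 and 10.99 in the same order of groups. Its change was -0.52 with shRNA 1 (adjusted p = 0.054) and -0.69 with shRNA 2 (adjusted p = 0.014). Under the replicate block both passed with shRNA 1 as well (adjusted p = 0.027 for CARS1 and 0.024 for SARS1).

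EPRS1, the joint glutamyl- and prolyl-tRNA synthetase, read 11.06 and 11.09 with scramble, 10.48 and 10.57 with shRNA 1, and 10.51 and 10.14 with shRNA 2. It changed by -0.55 with shRNA 1 (adjusted p = 0.089, or just under 0.05 with the block) and fell by 0.75 with shRNA 2 (adjusted p = 0.023). YARS1, the tyrosyl enzyme, read 11.44 and 11.32, then 11.06 and 11.04, then 10.88 and 10.76, a change of -0.33 with shRNA 1 (adjusted p = 0.13) and -0.56 with shRNA 2 (adjusted p = 0.020). NARS1, the asparaginyl enzyme, moved least of the 5. It read 13.33 and 13.30, then 12.97 and 13.00, then 12.96 and 12.93, for -0.33 (adjusted p = 0.10, or 0.049 with the block) and -0.37 (adjusted p = 0.046). The NARS1 call with shRNA 2 was lost under quantile normalization (adjusted p = 0.063) and with a mean of at least 6 (adjusted p = 0.051). For all 5 genes the 95% interval of the difference between the shRNAs included 0, and it was widest for EPRS1, from -0.20 to 0.60.

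HARS1, AARS1 and LARS1 fell with shRNA 2 and lay nearer to scramble with shRNA 1. Like the genes of the preceding group, AARS1 and LARS1 were lower on every knockdown array than on both scramble arrays. HARS1 was not, as its shRNA 1 arrays overlapped with scramble. The share of all tested genes separated in this way was not counted. HARS1, histidyl-tRNA synthetase, read 11.17 and 11.02 with scramble, 11.20 and 11.10 with shRNA 1, and 10.40 and 10.36 with shRNA 2. It changed by 0.05 with shRNA 1 (95% interval -0.24 to 0.34) and fell by 0.71 with shRNA 2 (adjusted p = 0.012). AARS1, the alanyl enzyme, read 10.95 and 11.14, then 10.73 and 10.91, then 10.24 and 10.32, and LARS1, the leucyl enzyme, 12.37 and 12.44, then 12.17 and 12.29, then 11.87 and 11.58. With shRNA 2 AARS1 fell by 0.76 (adjusted p = 0.014) and LARS1 by 0.68 (adjusted p = 0.022). With shRNA 1 the changes were -0.22 (adjusted p = 0.32) and -0.17 (adjusted p = 0.47). All 3 were higher with shRNA 1 than with shRNA 2, by 0.76 for HARS1 (adjusted p = 0.0067), 0.54 for AARS1 (adjusted p = 0.026) and 0.51 for LARS1 (adjusted p = 0.039).

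WARS1, the tryptophanyl enzyme, showed the opposite arrangement. It read 9.94 and 10.08 with scramble, 8.91 and 9.23 with shRNA 1, and 10.01 and 9.98 with shRNA 2. The fall with shRNA 1 was 1.92-fold (log2 -0.94 ± 0.15, adjusted p = 0.025), and with shRNA 2 the change was -0.01 (95% interval -0.39 to 0.36). The shRNAs differed by -0.93 (adjusted p = 0.0078). VARS1, the valyl enzyme, read 9.37 and 9.03, then 8.90 and 8.66, then 9.65 and 9.71, and did not pass against scramble with shRNA 1 (-0.42, adjusted p = 0.17) or shRNA 2 (0.48, adjusted p = 0.086, or 0.036 with the block). Between the shRNAs it differed by -0.90 (adjusted p = 0.012). RARS1, the arginyl enzyme, read 11.93 and 11.86, then 11.93 and 11.74, then 12.34 and 12.22. Its change was -0.06 with shRNA 1 and 0.39 with shRNA 2 (adjusted p = 0.070, or 0.022 with the block), and the difference between them was -0.45 (adjusted p = 0.040).

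The other 3 cytosolic genes with a value were called in none of the 4 comparisons. They were FARSA and FARSB, the alpha and beta subunits of the phenylalanyl enzyme, and KARS1, the lysyl enzyme. FARSB, which had the largest average change of the cytosolic genes without a call (-0.23), read 10.17 and 9.68 with scramble, 9.90 and 9.08 with shRNA 1, and 10.16 and 9.62 with shRNA 2. Its replicate 1 was above replicate 2 in every group, by 0.49, 0.82 and 0.53, and under the block it was lower with shRNA 1 than with shRNA 2 (-0.40, adjusted p = 0.040). KARS1, which like GARS1 serves both compartments, read 13.80 and 13.69, then 14.00 and 13.81, then 13.71 and 13.60, and its 95% interval for the average change was -0.24 to 0.31. FARSA read 8.42 and 7.72, then 8.44 and 7.76, then 8.44 and 8.27.

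**Figure D3:**
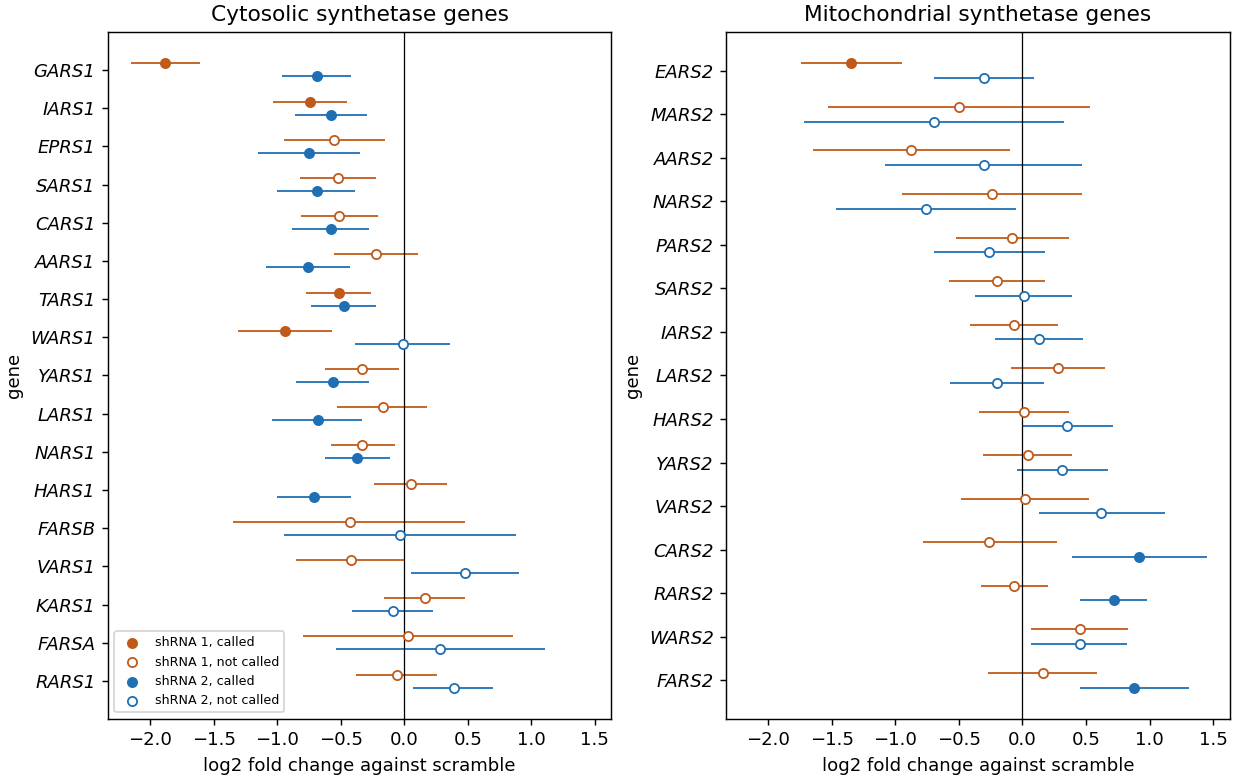
Points give the log2 fold change of each synthetase gene against scramble for shRNA 1 (orange) and shRNA 2 (blue), with 95% intervals from limma. Filled points passed at an adjusted p under 0.05, open points did not. The points of GARS1, EARS2 and WARS1 lie farthest to the left under shRNA 1, and those of CARS2, FARS2 and RARS2 lie to the right under shRNA 2.

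Among the mitochondrial enzymes EARS2, which loads glutamate, was the member that fell. It read 7.15 and 6.97 with scramble, 5.86 and 5.56 with shRNA 1, and 6.83 and 6.68 with shRNA 2. All 4 knockdown arrays were below the scramble arrays, those of shRNA 1 by the larger step. The fall with shRNA 1 was 2.55-fold (log2 -1.35 ± 0.15, adjusted p = 0.013). With shRNA 2 the change was -0.30 (adjusted p = 0.20, or 0.047 with the replicate block), and the shRNAs differed by -1.05 (adjusted p = 0.0065). Its other probe sets with a mean of at least 4 had -0.68 and -1.05 with shRNA 1, and 0.21 and 0.17 with shRNA 2, so the sign with shRNA 2 depends on the probe set. Averaging all its probe sets lost the call in the average of both shRNAs (-0.38, adjusted p = 0.096).

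The 3 mitochondrial genes that rose did so with shRNA 2, a share of the 15 near the 16.7% of all tested genes called higher. RARS2, the arginyl enzyme, read 10.61 and 10.66 with scramble, 10.54 and 10.60 with shRNA 1, and 11.31 and 11.40 with shRNA 2, a rise of 1.64-fold (log2 0.72 ± 0.10, adjusted p = 0.0098). FARS2, the phenylalanyl enzyme, read 8.39 and 8.06, then 8.44 and 8.33, then 9.24 and 8.97, a rise of 1.84-fold (0.88 ± 0.17, adjusted p = 0.018). CARS2, the cysteinyl enzyme, read 6.45 and 6.32, then 6.24 and 6.01, then 7.05 and 7.56, a rise of 1.89-fold (0.92 ± 0.21, adjusted p = 0.028). With shRNA 1 the same genes changed by -0.07, 0.16 and -0.26, and did not pass the test. The difference between the shRNAs passed for each, at -0.78 for RARS2 (adjusted p = 0.0050), -0.72 for FARS2 (adjusted p = 0.024) and -1.18 for CARS2 (adjusted p = 0.010).

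The other 11 mitochondrial genes were called in none of the 4 comparisons: AARS2, HARS2, IARS2, LARS2, MARS2, NARS2, PARS2, SARS2, VARS2, WARS2 and YARS2. MARS2, the methionyl enzyme, had the largest average change among them (-0.60, adjusted p = 0.30). It was also the dimmest, reading 5.73 and 5.06 with scramble, 5.35 and 4.43 with shRNA 1, and 4.95 and 4.44 with shRNA 2. Its replicates differed by 0.67, 0.92 and 0.51 within the groups, always with replicate 1 higher. Under the replicate block its changes passed for shRNA 1 (adjusted p = 0.047) and shRNA 2 (adjusted p = 0.012). WARS2, the tryptophanyl enzyme, was the mitochondrial gene with all 4 knockdown arrays (7.59, 7.70, 7.68 and 7.60) above both scramble arrays (7.03 and 7.36), by 0.45 with either shRNA (adjusted p = 0.12, and 0.077 or 0.041 with the block). Its second probe set had 0.05 with shRNA 1, where replicate 2 (6.30) was below both scramble arrays (6.43 and 6.48), and 0.47 with shRNA 2. AARS2 had -0.88 with shRNA 1 (adjusted p = 0.13, or 0.036 with the block), NARS2 -0.76 with shRNA 2 (adjusted p = 0.098, or 0.0080 with the block), and VARS2 0.62 with shRNA 2 (adjusted p = 0.066, or 0.016 with the block). YARS2 had 0.31 with shRNA 2 (adjusted p = 0.14, or 0.038 with the block). AARS2 and PARS2 were lower on all 4 knockdown arrays than on both scramble arrays, AARS2 by both of its probe sets. Across the set, 14 of the 32 genes were higher on replicate 1 in all 3 groups and 3 were higher on replicate 2.

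Set directly against each other, the shRNAs differed in 11 of the 32 genes, 8 lower and 3 higher with shRNA 1, where 41.1% of all tested genes were called, 23.3% lower and 17.8% higher. Of the 11 genes 7 were cytosolic and 4 mitochondrial. GARS1, CARS2, EARS2, WARS1, VARS1, RARS2, FARS2 and RARS1 were lower with shRNA 1, and HARS1, AARS1 and LARS1 were higher. The share of the set, 11 of 32, was below the background share. The replicate block called 16, adding FARSB, LARS2, NARS2, VARS2 and YARS2. It called 6071 of all 10526 tested genes, so 16 of 32 was again below the background share. Residual KDM5A also differed, shRNA 1 leaving 0.65 more than shRNA 2 by the brightest probe set (limma adjusted p = 0.010). Its other probe sets with a mean of at least 4 gave smaller differences of 0.30, 0.38 and 0.40. The count of 11 was 5 without shRNA 1 replicate 2, 4 without shRNA 2 replicate 1 and 5 without shRNA 2 replicate 2.

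**Figure D4:**
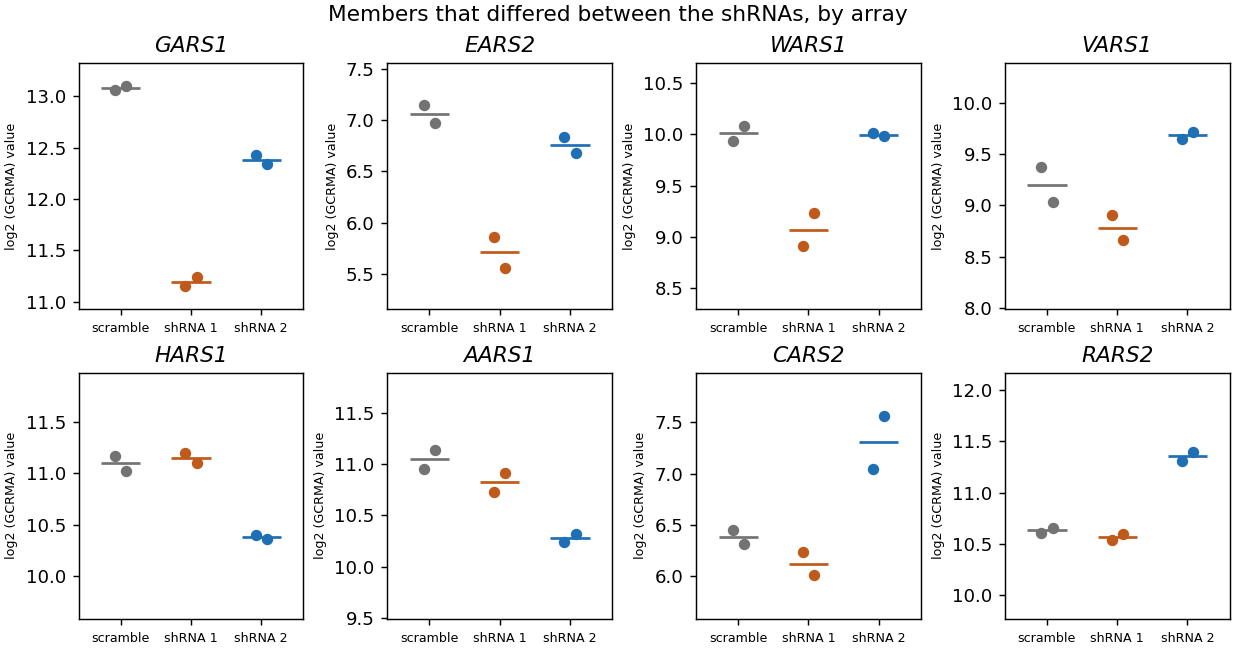
Log2 (GCRMA) values of 8 of the 11 synthetase genes that differed between the shRNAs, a dot per array and a line at the mean of the 2 arrays. Each panel has its own axis of the same length, because levels of different probe sets are not compared. GARS1, EARS2, WARS1 and VARS1 were lowest with shRNA 1, HARS1 and AARS1 lowest with shRNA 2, and CARS2 and RARS2 highest with shRNA 2.

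Of 12 cytosolic genes that are often listed as ATF4 targets, 11 had a value (AARS1, CARS1, EPRS1, GARS1, IARS1, LARS1, NARS1, SARS1, TARS1, WARS1 and YARS1). In this group 7 fell in the average of both shRNAs, 4 with shRNA 1 and 10 with shRNA 2, and all 11 values were below 0 in each. Of all tested genes 6.92%, 7.90% and 14.4% were called lower in these comparisons. Under the replicate block the counts were 11, 8 and 10, with 1842, 1769 and 2338 of all 10526 tested genes called lower. The median log2 fold changes were -0.49, -0.51 and -0.58. Of the 6 other cytosolic genes (FARSA, FARSB, HARS1, KARS1, RARS1 and VARS1), 0 were called in the average and with shRNA 1, and HARS1 fell with shRNA 2. Their medians were 0.03, -0.01 and 0.13. EARS2, which is mitochondrial, also fell outside the list. The listing was drawn up with earlier results of these arrays known, so these counts are a description and not independent evidence.

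The multisynthetase complex is a cytosolic assembly that holds a subset of the synthetases on scaffold proteins, and 5 of its 7 listed enzymes had a value (EPRS1, IARS1, KARS1, LARS1 and RARS1). Of these 2 fell in the average, 1 with shRNA 1 and 3 with shRNA 2, against 5, 3 and 8 of the 12 cytosolic enzymes outside it, where the background called lower was again 6.92%, 7.90% and 14.4%. The replicate block gave 3, 2 and 3 lower in the complex and 9, 6 and 8 lower outside it. Over all 10526 tested genes it called 1842, 1769 and 2338 lower. By the fold of the catalytic domain, 4 of 7 class I and 6 of 9 class II cytosolic enzymes fell with shRNA 2 (background 14.4%), EPRS1 being left out because it holds a domain of each class. The differences between these groups were not tested.

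By promoter, the 5 cytosolic genes with TGATGCAA in the window and a value (AARS1, CARS1, IARS1, NARS1 and TARS1) all fell with shRNA 2 (background 14.4% lower), by log2 -0.76 to -0.37 with a median of -0.58. Of the 9 cytosolic genes with a window but without these letters, 4 fell with shRNA 2, and the median was -0.09. With shRNA 1 (background 7.90% lower), 2 of the 5 and 2 of the 9 fell, with medians of -0.51 and -0.43. GARS1, the gene with the largest average fall by brightest probe set, was among the 9 and holds the looser motif shown above. EPRS1, SARS1 and WARS1 were among the 9 too. Of the 13 mitochondrial genes with a window, EARS2 fell with shRNA 1 and 0 fell with shRNA 2. LARS1, VARS1 and YARS1 had a value but no window. All 5 genes with the motif are also on the list of ATF4 targets above. The motif was chosen with earlier results of these arrays known. The difference between the groups was not tested, so these counts are a description and not independent evidence.

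HARS1 and HARS2 are neighbours that are transcribed away from each other. In RefSeq their start bases lie at 140691370 (HARS1, minus strand) and 140691455 (HARS2, plus strand) on chromosome 5, with 84 bases between them. The whole interval, chr5:140691371-140691454, is printed on the plus strand, from HARS1 to HARS2, because the genes start just beyond its ends. It has no capitals, since it holds neither motif.
HARS1/HARS2 interval: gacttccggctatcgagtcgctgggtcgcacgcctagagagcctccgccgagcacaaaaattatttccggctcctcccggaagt
With shRNA 2 HARS1 fell by 0.71 (adjusted p = 0.012). HARS2 read 8.44 and 8.71 with scramble, 8.63 and 8.55 with shRNA 1, and 8.86 and 9.00 with shRNA 2, which put it 0.35 above scramble and short of the threshold (adjusted p = 0.12). With shRNA 1 both were close to scramble, at 0.05 and 0.01.

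For 15 combinations of a cytosolic and a mitochondrial gene for the same amino acid, both had a value. EPRS1 and FARS2 occur in 2 combinations each. The cytosolic log2 fold change was the lower of the pair in 11 of 15 combinations with shRNA 1 and in 14 of 15 with shRNA 2. The exceptions with shRNA 1 were AARS1 with AARS2, EPRS1 with EARS2, HARS1 with HARS2, and RARS1 with RARS2. With shRNA 2 the exception was NARS1 (-0.37) with NARS2 (-0.76). The largest separation was between CARS1 (-0.58) and CARS2 (0.92) with shRNA 2. These are differences of fold changes and not of levels, and they were not tested.

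**Figure D5:**
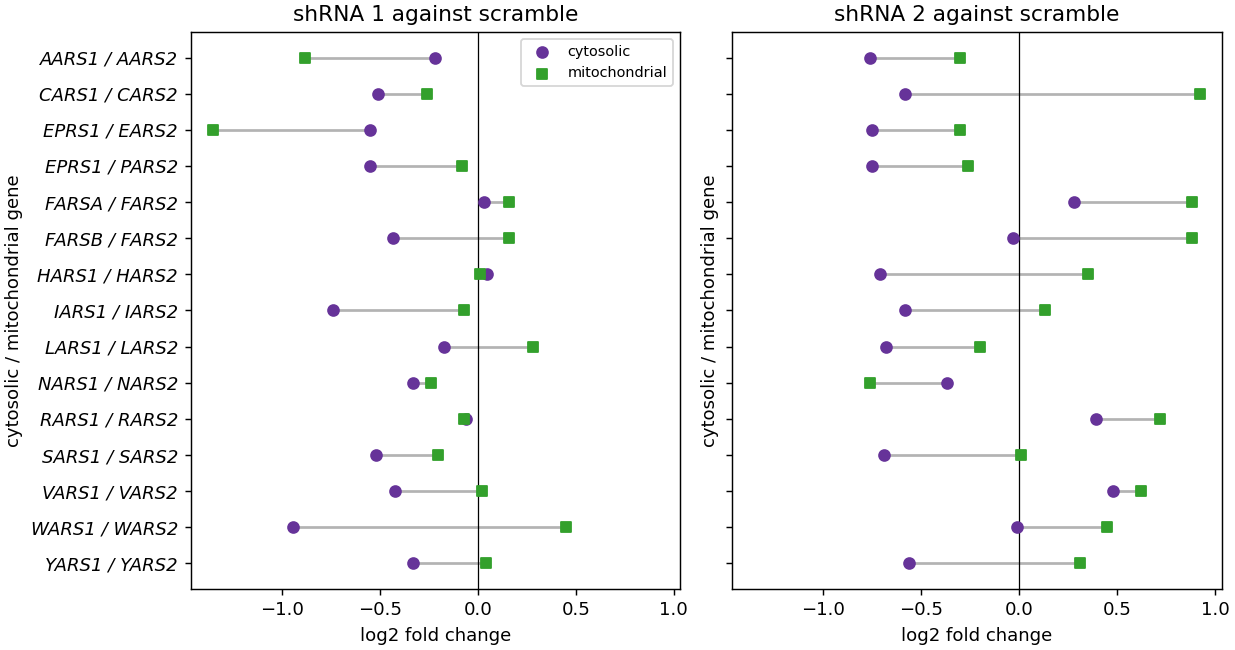
Log2 fold changes against scramble for the cytosolic gene (purple circle) and the mitochondrial gene (green square) for the same amino acid, joined by a grey line, with shRNA 1 on the left and shRNA 2 on the right. The circle is left of the square in 11 of 15 rows with shRNA 1 and in 14 of 15 with shRNA 2.

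Second probe sets were present for 15 of the genes at a mean of at least 4. In SARS1 the second probe set changed far more, by a log2 of -2.42 (shRNA 1) and -2.30 (shRNA 2), than the -0.52 and -0.69 of its brightest. With all probe sets of a gene averaged, the change over both shRNAs was -1.49 for SARS1 and -1.29 for GARS1. YARS1 (-0.78 and -1.25), CARS1 (-0.64 and -0.65 in 1 probe set, -0.80 and -0.64 in another) and EPRS1 (-0.56 and -0.64, -0.73 and -0.93) kept the direction with both shRNAs. WARS1 kept its pattern, with -0.91 and -0.13. RARS2 and FARS2 did as well, with -0.12 and 0.33 for shRNA 1 and 0.78 and 0.84 for shRNA 2. LARS1 had -0.27, 0.13 and -0.33 with shRNA 1, so its sign there varied, and -0.63, -0.42 and -0.79 with shRNA 2.

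Genes that work beside the synthetases were counted from lists. Of 5 enzymes of tRNA maturation, special charging and export, XPOT, which exports tRNA from the nucleus, fell in the average (-0.70, adjusted p = 0.038, background 6.92% lower) and with shRNA 2 (-0.91, adjusted p = 0.015). It read 12.62 and 12.94 with scramble, 12.30 and 12.25 with shRNA 1, and 11.99 and 11.76 with shRNA 2. PSTK, a kinase on the route to selenocysteinyl-tRNA, rose with shRNA 2 (0.69, adjusted p = 0.049), where 16.7% of all tested genes rose, and MTFMT, SEPSECS and TRNT1 were not called against scramble. TRNT1, which adds the CCA end to tRNA, had -0.75 with shRNA 1 (adjusted p = 0.098, or 0.0098 with the block). Of the 3 amidotransferase subunits GATB rose with shRNA 2 (1.07, adjusted p = 0.042), and QRSL1 and GATC were not called against scramble. Under the block GATB was also higher with shRNA 1 (0.53, adjusted p = 0.28 without and 0.018 with it), and GATC with shRNA 2 (0.42, adjusted p = 0.058 and 0.030). The GATB call was lost without any 1 array (adjusted p = 0.057 to 0.20), and that of PSTK without a scramble or shRNA 2 array (0.12 to 0.22). XPOT kept its call with shRNA 2 without scramble replicate 1 or an shRNA 1 array and lost it without the others (0.063 to 0.084), and lost its call in the average without any 1 array (0.080 to 0.16). The scaffold gene AIMP1, the 1 of 3 with a tested value, and 5 tested elongation factor genes that deliver charged tRNA were not called against scramble either; under the block TSFM was higher in the average (0.46, adjusted p = 0.13 without and 0.032 with it).

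Of 7 genes that sense uncharged tRNA or lie at the output of that route, 4 fell in the average and 0 rose, with 6.92% of all tested genes lower: ATF4 (-0.99, adjusted p = 0.016), DDIT3 (-1.62, adjusted p = 0.026), the pseudokinase TRIB3 (-2.93, adjusted p = 0.026) and asparagine synthetase ASNS (-2.15, adjusted p = 0.017). With shRNA 1 (background 7.90% lower) the same genes fell except DDIT3 (-1.19, adjusted p = 0.071, or 0.048 with the block). With shRNA 2 (background 14.4% lower) all 4 fell. With an array left out, the shRNA 1 change ranged from -3.81 to -2.13 in TRIB3 and from -2.26 to -1.43 in ASNS. The shRNA 2 change then ranged from -3.74 to -2.05 in TRIB3 and from -2.47 to -1.64 in DDIT3. TRIB3 read 9.23 and 10.91 with scramble, 6.99 and 7.21 with shRNA 1, and 7.24 and 7.10 with shRNA 2. The scramble arrays of TRIB3 were far apart, and its average change was -3.77 without scramble replicate 1 (adjusted p = 0.11) and -2.09 without scramble replicate 2 (adjusted p = 0.10). DDIT3 went to -2.04 (adjusted p = 0.12) and -1.21 (adjusted p = 0.11) in the same way. In the average, leaving out any 1 array lost the calls of DDIT3 and TRIB3, and those of ATF4 and ASNS were kept without shRNA 1 replicate 1 (adjusted p = 0.048 each). ATF4 read 12.73 and 12.77 with scramble, 12.12 and 12.15 with shRNA 1, and 11.33 and 11.45 with shRNA 2. It fell with each shRNA, by 0.62 (adjusted p = 0.030, lost without any 1 array at 0.075 to 0.13) and 1.36 (adjusted p = 0.0032), and shRNA 1 left 0.74 more of it than shRNA 2 (adjusted p = 0.0059). The sensing genes EIF2AK4, GCN1 and EIF2S1 were not called against scramble and had average changes of 0.28, 0.05 and -0.33. Under the block EIF2AK4 was higher with shRNA 2 (0.41, adjusted p = 0.18 without and 0.047 with it). ATF4 was thus lowest with shRNA 2, as were AARS1, HARS1 and LARS1, whereas GARS1, EARS2 and WARS1 were lowest with shRNA 1. Whether the ATF4 level has a part in the synthetase values was not tested.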

How the data were processed

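The authors deposited 1 value per probe set and array, made with GCRMA per the submitters' processing notes, which name no version. This method estimates background from probe sequence, normalizes across arrays and compresses dim probe sets to a floor, so differences between dim values can be understated. The deposited values were taken to be on a log2 scale from their range (2.24 to 15.9). RNA was labelled as biotinylated cRNA from 250 ng of total RNA per the labels' protocols. Of 54675 probe sets, 62 controls were left out; 41091 carried 1 symbol and 1801 several, which were not used. Each gene took its brightest probe set and was tested at a mean log2 of at least 4. All 32 genes of the set with a value passed, and none came within 0.5 of the floor.

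Limma 3.58.1 in R 4.3.3 fitted 3 group means over 6 arrays (3 residual and 2.09 prior degrees of freedom), two-sided, with 4 contrasts and Benjamini-Hochberg adjustment over all 10526 genes. Precision is limited by having 6 arrays, with a median SE of 0.14 for the average of both shRNAs and 0.17 otherwise. The code was tested on simulated data. Titles give the replicate numbers. Deviations from group means of same-numbered arrays correlated at 0.75 (scramble with shRNA 1), 0.51 (scramble with shRNA 2) and 0.53 (both shRNAs). The titles do not state that same-numbered samples were paired, and the main fit has no block. Results with the replicate number as a block are given where they move a synthetase count by over 1.5 times or change a synthetase call. They are also given for some partner genes. No 2 arrays were identical (0 identical pairs).

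Array values are given for KDM5A, for each gene of the set called in at least 1 comparison, and for the uncalled gene of each class with the largest average change. Others named were picked for description after their values were seen. The genes, lists and motifs were chosen with earlier results of these data known. Promoter sequences are from RefSeq.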

Additional observations from a re-analysis of the deposited data

Results flagged for a closer look

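For 11 synthetase genes the effect of the knockdown differed between the shRNAs by limma's test of the difference, shown as shRNA 1 minus shRNA 2 on the log2 scale with its adjusted p. Lower with shRNA 1 were GARS1 (-1.19, 0.0019), CARS2 (-1.18, 0.010), EARS2 (-1.05, 0.0065), WARS1 (-0.93, 0.0078), VARS1 (-0.90, 0.012), RARS2 (-0.78, 0.0050), FARS2 (-0.72, 0.024) and RARS1 (-0.45, 0.040). Higher with shRNA 1 were LARS1 (0.51, 0.039), AARS1 (0.54, 0.026) and HARS1 (0.76, 0.0067). In all 11 genes both arrays of shRNA 1 lay on the same side of both arrays of shRNA 2. Selection by this difference makes that likely, so it is not further evidence. Of all tested genes 41.1% were called in this comparison.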

How the results depend on the processing

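With 2 arrays a group, the counts of called synthetase genes depended on the settings more than the directions did. In the average of both shRNAs the count of 8 became 3 with no filter on dim genes (more genes tested), 5 without _x_at and _s_at probe sets, which can match several transcripts (26 genes left), 18 with the replicate number as a block, and 0 to 2 with an array left out. For shRNA 1 the count of 5 became 3, 3, 11 and 0 to 1 in the same order, and 8 with limma's trend. For shRNA 2 the count of 14 became 22 with the replicate block and 0 to 13 with an array left out. Between the shRNAs the count of 11 became 5 with no filter and 4 to 9 with an array left out; the replicate block gave 16. Where a count was 0 in limma, 7 to 17 of the 32 genes had an unadjusted p under 0.05. Over all 10526 tested genes the block called 3670 in the average, 3117 with shRNA 1 and 5324 with shRNA 2. Between the shRNAs it called 6071 of them. Other causes of the changes in the synthetase counts were not tested. The single reversal was FARSB, never called, whose average change of -0.23 ranged from -0.48 to 0.02 with an array left out and was 0.02 without scramble replicate 1. The 38 called gene results kept their direction in every alternative run in which the gene was tested. Without _x_at and _s_at probe sets, 27 of 40 results remained, counting the average changes of the uncalled FARSB and MARS2 among the 40. The lowest value of the set on any array was 4.43, in MARS2, and no tested gene of the set had an array within 0.5 of the floor. MARS2 and PARS2 were dim, with mean log2 values of 4.99 and 5.46, and differences between dim values can be understated. Mean log2 values ran from 4.99 (MARS2) to 11.72 (IARS2) in the mitochondrial genes. In the cytosolic genes they ran higher, from 8.17 (FARSA) to 13.77 (KARS1). Whether dim signal limited any gene of the set, or has a part in the contrast between the classes, was not tested.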
